A study of Solanum lycopersicum with 3 samples.

Results

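Metallothioneins are small cysteine-rich proteins of the cytosol that bind copper and zinc ions through their thiol groups. Copper chaperones hand single copper ions to particular target proteins, since free copper ions are toxic to cells. In Arabidopsis the chaperone CCH belongs to the ATX1 family, whose members hand copper to a membrane pump that loads proteins of the secretory pathway, the ethylene receptors among them. Metallothionein transcripts are known to be abundant in ripening fruits.

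The genes described here are the metallothionein genes MT2 and MTA and the copper chaperone gene CCH, chosen by symbol. Earlier results from these same arrays had placed them among the genes lowest in 1 of the preparations relative to the others. Each of the 3 genes had 1 probe set. They make up 3 of the 803 genes with a name on the array, and 3 of its 10038 non-control probe sets. Their levels and differences are therefore a description with no test.

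RNA came from fruit pericarp of glasshouse-grown tomato (Solanum lycopersicum, cultivar Ailsa Craig), and each of 3 preparations was hybridised to 1 Affymetrix tomato GeneChip. The Ex2 pellet is the cell debris spun down at 10000 x g for 15 min in the Ex2 procedure and extracted again by that method. The Ex2 supernatant is what stayed in solution in that spin, in a buffer of 0.6 M KCl, 0.2 M Tris-HCl, 0.2 M sucrose and 30 mM MgCl2 (2 ml per g of tissue), with detergent and phenol added only afterwards. Ex1 tissue was broken directly into a phenol-containing buffer (1 ml per g) and mixed with phenol and chloroform at once. All preparations started from 10 to 12 g of tissue and shared the later precipitation steps, and neither fruit stage nor pooling of fruit is given in the labels used here. The series asked, by its title and design, how the extraction protocol changes which mRNAs are recovered. With 1 array for each preparation, no difference below has a replicate check, a p-value or an error between samples.

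The arrays had near-equal medians as deposited, 170.0 on the pellet, 177 on Ex2 and 179 on Ex1. Across non-control probe sets, which share arrays and are not replicates, log2 values correlated at 0.98 (Pearson) between the pellet and Ex1, and at 0.94 between Ex2 and either of these. All 9 ripening fruit markers with a probe set, among them the fruit polygalacturonase gene PG2 and the ethylene-responsive gene E8, lay above the brightness filter on every array. Controls differed between arrays. For 25S ribosomal RNA the intensity was 568 on the pellet, 367 on Ex2 and 1809 on Ex1. The bacterial hybridisation spikes, at the array medians of their 21 probe sets, exceeded their Ex1 level 1.56-fold on the pellet and 2.29-fold on Ex2.

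MT2, MTA and CCH were each lowest in the Ex2 supernatant and highest in the Ex2 pellet, with Ex1 between. MT2 had an intensity of 367 on the pellet, 96.5 on Ex2 and 262 on Ex1. MTA had an intensity of 3919 on the pellet, 951 on Ex2 and 2409 on Ex1. CCH had an intensity of 3022 on the pellet, 743 on Ex2 and 1670 on Ex1. The order of the arrays was the same for all of them, although levels of different probe sets cannot be set against each other. On Ex2, MT2 lay under the brightness filter of 175 used below, which is the median of all non-control values, and it passed through its other values. None of the probe sets had a tied value, while 946 of the 10038 were tied over all arrays and 1524 over exactly 2.

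**Figure D1:**
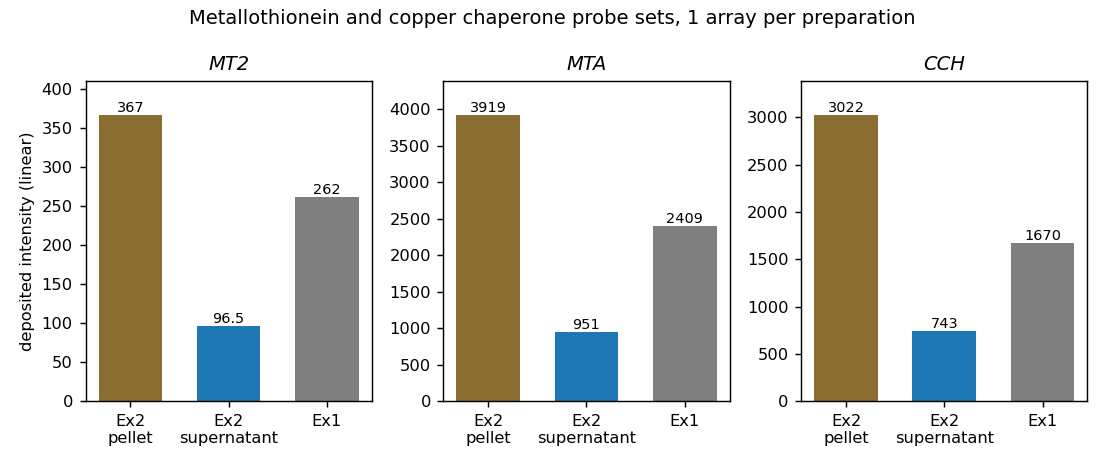
Deposited intensity (linear axis from 0) of the MT2, MTA and CCH probe sets on the Ex2 pellet, Ex2 supernatant and Ex1 arrays, 1 bar per array and so with no error bars. In each panel the Ex2 bar is the lowest (96.5, 951 and 743) and the pellet bar the highest (367, 3919 and 3022), and each panel has its own axis.

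The comparison of Ex2 with Ex1 sets the high-salt supernatant against direct phenol extraction. Differences are of log2(intensity + 1), which understates them for dim probe sets. MT2 differed by -1.43 (2.70-fold lower in Ex2), MTA by -1.34 (2.53-fold lower) and CCH by -1.17 (2.24-fold lower). A difference of 2-fold or more downwards was found for all 3, against 560 of the 5568 non-control probe sets past the filter (10.1%) and 23 of 495 named genes (4.65%). Since this contrast was used to choose the genes, nothing is read from that count. In rank, 1 named gene lay below MT2, 4 below MTA and 9 below CCH. Over all probe sets, most of them without a gene name here, 57 lay below MT2, 105 below MTA and 263 below CCH. The named genes nearest the 2-fold line were CBF1, just inside it at -1.003, and FKBP12, just outside at -0.999.

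The comparison of the pellet with Ex2 sets the re-extracted debris against the solution it was spun out of. MTA differed by 2.04 (4.12-fold higher in the pellet), CCH by 2.02 (4.06-fold higher) and MT2 by 1.92 (3.77-fold higher). All 3 were past 2-fold, on a background of 943 of 5538 probe sets higher in the pellet by that much (17%) and 47 of 499 named genes (9.42%). The genes were chosen with this contrast too, so nothing is read from that count or from the ranks. In this contrast 3 named genes lay above MTA, 4 above CCH and 5 above MT2. It shares the Ex2 array with the comparison before it, so a low reading on that 1 array enters both with opposite sign. Just inside and just outside the 2-fold line were CITRX at 1.00 and tft8 at 0.97.

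The comparison of the pellet with Ex1 leaves the Ex2 array out. It is still the sum of the 2 differences above, which were used to choose the genes, so it is not free of that choice. Here the differences were smaller, 0.86 for CCH (1.81-fold higher in the pellet), 0.70 for MTA (1.63-fold) and 0.48 for MT2 (1.40-fold). None of the 3 reached 2-fold, against a background of 200 of 5297 probe sets at least 2-fold higher (3.78%) and 24 of 471 named genes (5.1%). Of the 471, 33 lay above CCH, 48 above MTA and 84 above MT2, and nothing is read from these ranks. Where a gene had several bright probe sets on these arrays, their differences lay a median of 0.18 apart in this contrast (25 genes), 0.38 between the pellet and Ex2 (24 genes) and 0.22 between Ex2 and Ex1 (26 genes).

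For MT2, MTA and CCH, neither direction that involves Ex2 turned under the 4 other scalings tried, while the differences between the pellet and Ex1 were close to 0 on 1 of these scales. With arrays scaled on RPL3 and RPL8, which code for ribosomal proteins, a constant of 0.55 is added to every Ex2 minus Ex1 difference. MT2 was then at -0.89, MTA at -0.79 and CCH at -0.62, so none was 2-fold lower. This scale rests on 2 genes that were themselves lower in Ex2 as deposited, RPL8 at -0.61 and RPL3 at -0.48. Whether their transcripts are recovered evenly was not tested. With arrays scaled on the hybridisation spikes, the constant is -1.19, and the values were -2.63, -2.53 and -2.36. Between the pellet and Ex1, the spikes left CCH at 0.21 and MTA at 0.057, and MT2 turned to -0.16.

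**Figure D2:**
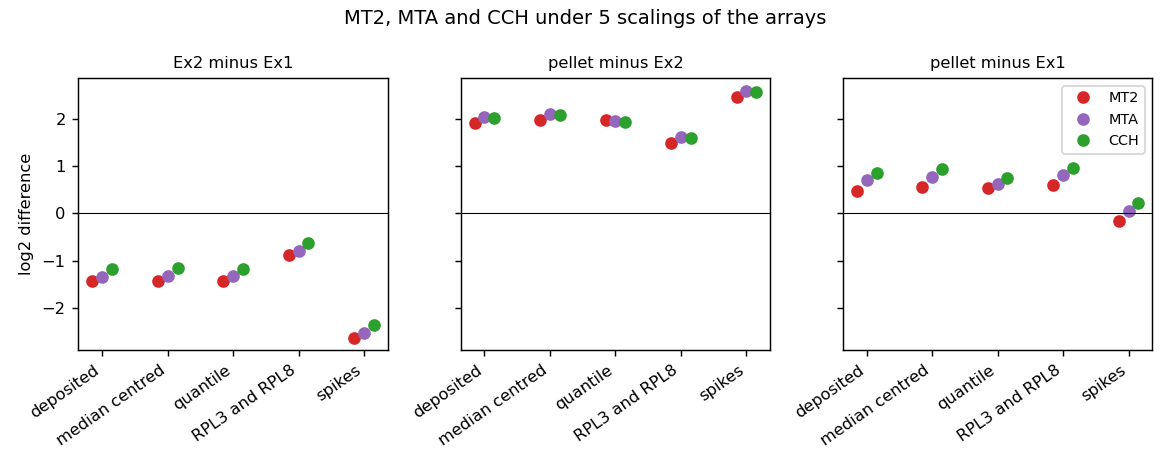
Log2 differences of MT2, MTA and CCH for the 3 pairs of arrays, on the deposited scale and under 4 other scalings, 1 point per gene and scaling with no error bars. Points stay below 0 for Ex2 minus Ex1 (-2.63 to -0.62) and above 0 for pellet minus Ex2 (1.48 to 2.59), while MT2 crosses 0 for pellet minus Ex1 with the spikes (-0.16).

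The other genes with a metallothionein symbol differed by smaller amounts or were too dim to compare. MT4 had 4 probe sets, and the one with the highest mean read 10256 on the pellet, 4963 on Ex2 and 9845 on Ex1. Ex2 minus Ex1 was thus -0.99 and pellet minus Ex2 was 1.05. Its probe sets did not give 1 answer, since their range was -0.99 to 0.17 (Ex2 minus Ex1) and -0.17 to 1.05 (pellet minus Ex2). Of the 4, 3 carry the suffix that marks designs prone to cross-hybridisation, and the remaining one gave -0.26 (Ex2 minus Ex1) and 0.54 (pellet minus Ex2).

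LEMT1, which RefSeq also calls MTB, read 13205 on the pellet, 9411 on Ex2 and 12833 on Ex1, or -0.45 (Ex2 minus Ex1) and 0.49 (pellet minus Ex2). Its Ex2 value was the lowest, as for MT2 and MTA, but by less than 2-fold, and its Ex2 minus Ex1 difference turns with the 0.55 that scaling on RPL3 and RPL8 adds. MT3 read 41.4 on the pellet, 43.3 on Ex2 and 36.6 on Ex1, all under the brightness filter. In the gene order of the RefSeq assembly SLM_r2.1, MT3 is 4 entries away from MTA. How far probes of 1 metallothionein gene detect transcripts of another was not tested, because probe sequences were not used here.

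Large differences were less common among the brightest probe sets. Ex2 was at least 2-fold below both other arrays for 453 of 5671 probe sets with a value past the filter (7.99%), and for 391 of them (6.89%) the pellet was also above Ex1, as for MT2, MTA and CCH. By mean intensity over the arrays, Ex2 was that far below both others in 153 of 2150 probe sets between the filter and 500 (7.12%), the range of MT2, and in 97 of 1215 between 500 and 1000 (7.98%). It was so in 113 of 923 between 1000 and 2000 (12.2%), in 47 of 597 between 2000 and 4000 (7.87%) and in 9 of 244 between 4000 and 8000 (3.69%). It was so in 0 of the 60 with a mean of 8000 or more, the range that holds LEMT1 and the brightest MT4 probe set. In that range 3 of the 60 were at least 2-fold higher in Ex2 than in Ex1.

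**Figure D3:**
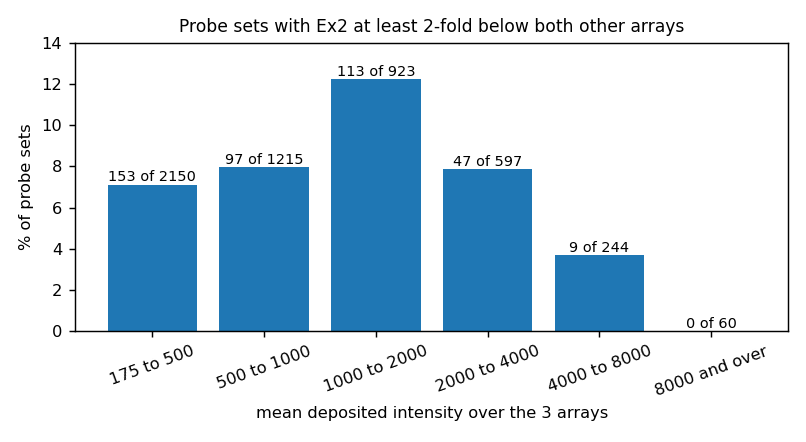
Share of non-control probe sets (vertical axis, %) whose Ex2 value was at least 2-fold below both the pellet and Ex1, by mean deposited intensity over the 3 arrays (horizontal axis), with counts above the bars. The share is highest between 1000 and 2000 (113 of 923) and 0 of 60 at 8000 and over.

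Other genes of copper and metal handling lay on both sides of 0. The list has 13 genes with a probe set, of which 9 passed the filter for Ex2 minus Ex1. Of the 9, MT2, MTA and CCH were at least 2-fold lower (background 4.65% of named genes). The NRAMP genes NRAMP3 and Nramp2, which code for metal transporters in membranes, were at least 2-fold higher, and 2 of 9 is near the background of 20.2% of named genes. The list's median was -0.61 for Ex2 minus Ex1, against -0.03 over all 495 named genes and -0.25 over all 5568 probe sets. Without MT2, MTA and CCH, which were chosen for being low there, it was -0.36 over 6 genes.

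NRAMP3 read 2249 on the pellet, 6499 on Ex2 and 1506 on Ex1, which gives 2.11 (Ex2 minus Ex1) and -1.53 (pellet minus Ex2). Nramp2 read 90.5 on the pellet, 279 on Ex2 and 70.3 on Ex1, and passed the filter through its Ex2 value alone. CCS, the chaperone that loads copper into superoxide dismutase, read 1728 on the pellet, 1187 on Ex2 and 1809 on Ex1, which is -0.61 for Ex2 minus Ex1. The 2 chaperones therefore both had their lowest value on Ex2, and CCH passed 2-fold while CCS did not. For pellet minus Ex1 CCH was at 0.86, while CCS at -0.07 was within the median gap of 0.18 between probe sets of 1 gene.

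RAN1 was at -0.28 for Ex2 minus Ex1. Its symbol is that of the copper pump of Arabidopsis but also of a small GTPase, so no role is given to it here. The genes of iron uptake in roots were dim, with FER, a transcription factor, at 12.3, the ferric reductase gene FRO1 at 12.1 and NRAMP1 at 11.3, each the same on all arrays. For pellet minus Ex2, 4 of the 9 genes were at least 2-fold higher (MTA, CCH, MT2 and MT4), against 9.42% of named genes, and the 2 NRAMP genes at least 2-fold lower, against 21.4%. The median was 0.54, against -0.07 over named genes. Without MT2, MTA and CCH, 1 of 6 was higher and 2 were lower, with a median of 0.37. For pellet minus Ex1 none of the 8 that passed was 2-fold apart, and their median was 0.27 against 0 over named genes. Without MT2, MTA and CCH it was 0.041 over 5 genes, and it was 0.059 for the list with no filter or with a filter at the upper quartile of all values.

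**Figure D4:**
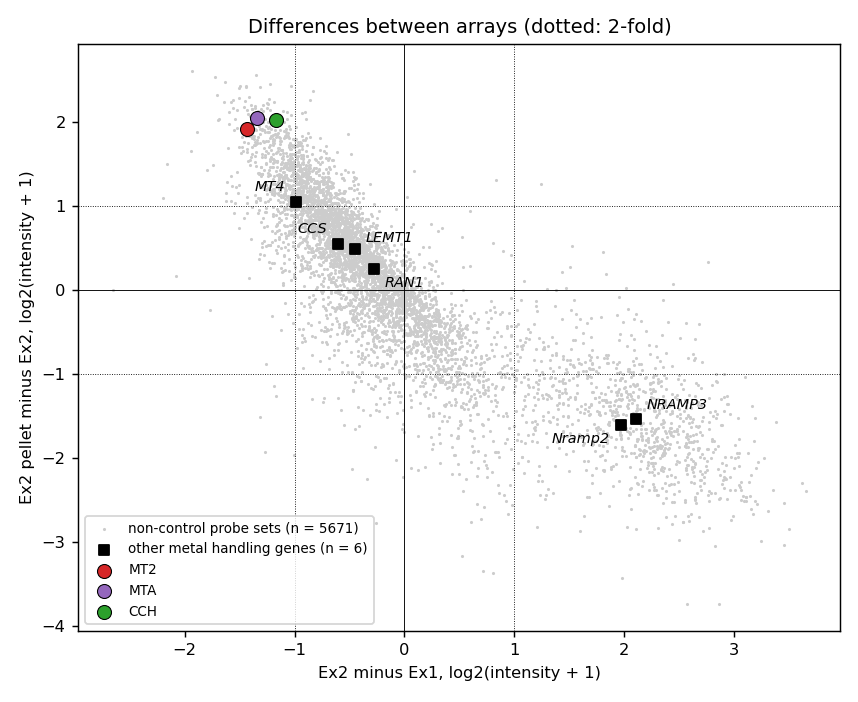
Ex2 minus Ex1 (horizontal) against pellet minus Ex2 (vertical), both as differences of log2(intensity + 1), for 5671 non-control probe sets (grey), MT2, MTA and CCH (coloured) and the 6 other metal handling genes past the filter (squares). MT2, MTA and CCH, which were chosen for being low on Ex2 relative to the other arrays, lie at the upper left, beyond 2-fold on both axes. NRAMP3 is at 2.11 and -1.53. Both axes use the Ex2 array, which by itself gives a downward slope.

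Genes for enzymes that carry copper were lower in Ex2 than in Ex1 by smaller amounts on the deposited scale. Of 4 with a probe set 3 passed the filter, and none was 2-fold apart between Ex2 and Ex1. The background is 4.65% of named genes lower and 20.2% higher. PETE, the gene of plastocyanin, the copper protein of photosynthetic electron transport, read 2969 on the pellet, 1398 on Ex2 and 2317 on Ex1. Ex2 minus Ex1 was -0.73, and pellet minus Ex2 was 1.09, where it alone of the 3 was past 2-fold. The superoxide dismutase genes SODCP.2, for a plastid enzyme, and SODCC.1, for a cytosolic one, were at -0.26 and -0.17 for Ex2 minus Ex1. SODCC.1 had a mean intensity in the top range, at 11160 on the pellet, 10081 on Ex2 and 11324 on Ex1. LOC606710, a polyphenol oxidase gene by its older names, read under 21 on every array. The median of the 3 was -0.26 (Ex2 minus Ex1) and 0.28 (pellet minus Ex2), and both signs turned with scaling on RPL3 and RPL8.

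Antioxidant and thiol genes had 11 of 14 members past the filter and none 2-fold apart between Ex2 and Ex1. The background is 4.65% of named genes lower and 20.2% higher. On the deposited scale 7 of the 11 were below 0, 3 were exact ties and 1, GSH1 of glutathione synthesis, was above 0 at 0.37. Below 0 were also 259 of 495 named genes and 3493 of 5568 probe sets, and 7 of 11 is near the share of probe sets. In the list the lowest were GPXle-2, a glutathione peroxidase gene, at -0.72, the ascorbate peroxidase gene APX2 at -0.64 and the dehydroascorbate reductase gene DHAR1 at -0.51. TPx1, of a thioredoxin peroxidase, was at -0.48, GPXle-1 and FESOD at -0.39 each and DHAR2 at -0.38. The ties were the catalase genes cat1 and CAT2 and GSH2, the second gene of glutathione synthesis. The list's median of -0.39 turned to 0.16 with scaling on RPL3 and RPL8. For pellet minus Ex2, DHAR1 at 1.21 and GPXle-2 at 1.05 were at least 2-fold higher and none lower, so 2 of 11, on a background of 9.42% of named genes and 17% of probe sets. The dimmer probe set of DHAR1 was further out, at 1.65, and that of GPXle-2 nearer, at 0.74. DHAR1 was also 0.70 higher in the pellet than in Ex1, the same as MTA to 2 decimals.

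**Figure D5:**
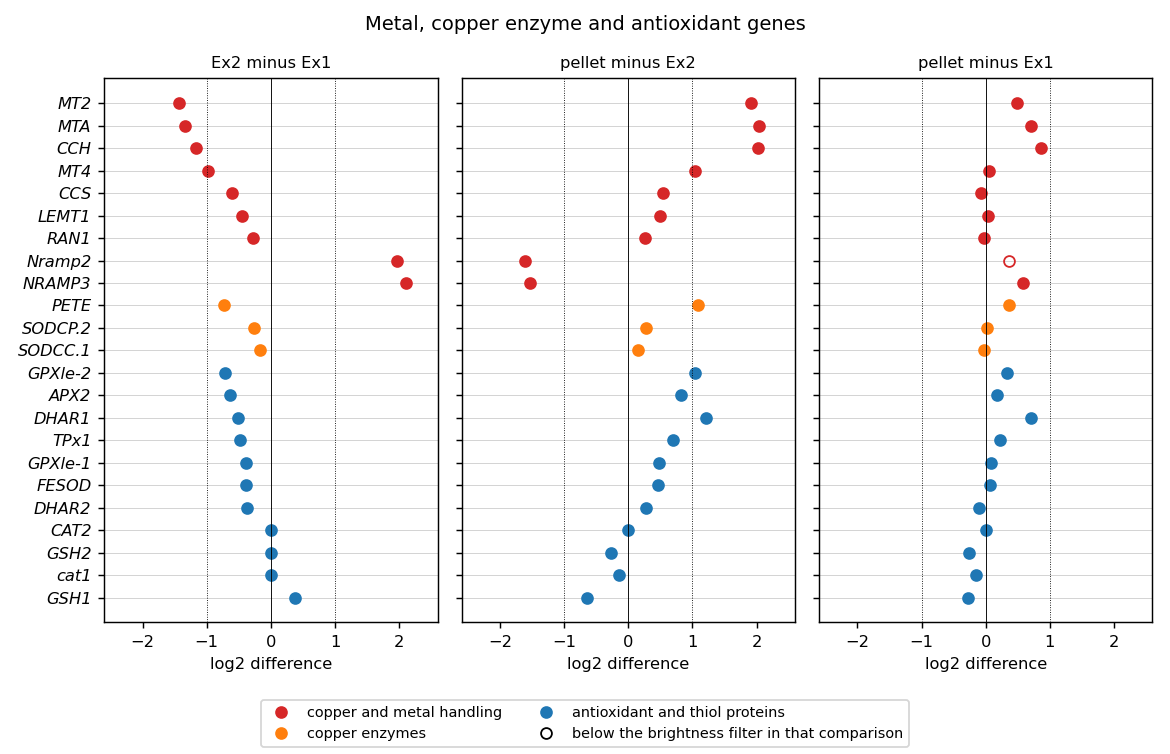
Log2 differences (horizontal axis, dotted lines at 2-fold) of 23 genes for metal handling, copper enzymes and antioxidant proteins, in a panel for each pair of arrays, 1 point per gene with no error bars. MT2, MTA and CCH are the 3 lowest for Ex2 minus Ex1 and the 3 highest for pellet minus Ex2. They were chosen for being low on Ex2 relative to the other arrays in these same data, so nothing is read from that place.

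The genes with profiles most like those of MT2, MTA and CCH were taken as the 5 named genes nearest to each, by Euclidean distance between log2 profiles centred on their mean over the 3 arrays. The 3 genes themselves were 0.13 (MTA and CCH), 0.16 (MT2 and MTA) and 0.27 (MT2 and CCH) apart. They were chosen for being low on Ex2 relative to the other arrays, so their closeness follows in part from that choice. The 3 sets held 9 distinct genes, and 2 of these were near all of MT2, MTA and CCH. One was TPSI1, a phosphate starvation gene, which read 907 on the pellet, 203 on Ex2 and 534 on Ex1 and lay 0.08 from MTA. The other was LOC544081, which read 581 on the pellet, 132 on Ex2 and 325 on Ex1 and lay 0.09 from CCH and 0.10 from MTA.

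LOC543632 and LOC544298 were near both MTA and CCH, at 0.24 and 0.27 from MTA and 0.17 and 0.22 from CCH. DDTFR19, LOC544187 and sumo, the gene of a small protein modifier, were near MT2 at 0.27, 0.28 and 0.29. LOC778319 was near MTA at 0.27, and PsbQ, a subunit gene of photosystem II, was near CCH at 0.21. A profile over 3 arrays has only 2 free values, and such likeness was common. Within the distance of the fifth named gene lay 184 of 5671 probe sets for MT2, 156 for MTA and 111 for CCH, most of them without a gene name here.

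Among named genes, Ex2 was at least 2-fold below both other arrays for 18 of 502 (3.59%). Besides MT2, MTA and CCH these included TIM10, of protein import into mitochondria, at 2302 on the pellet, 815 on Ex2 and 1949 on Ex1. The ribosomal protein gene rpl38 read 2840 on the pellet, 1033 on Ex2 and 2103 on Ex1. The mini zinc finger gene matriochka read 4979 on the pellet, 2099 on Ex2 and 4633 on Ex1.

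Marker genes differed between the preparations. The 9 ripening fruit markers summed to 55882 on the pellet, 67459 on Ex2 and 59592 on Ex1. Of these, EXP1 (1.55) and loxC (1.22) were at least 2-fold higher in Ex2 than in Ex1. NOR lay furthest the other way, at -0.93. Markers listed for other tissues differed too. The 6 green tissue markers summed to 16199 on the pellet, 10266 on Ex2 and 14573 on Ex1, the same order of arrays as for MT2, MTA and CCH. Most of that sum was PSBR, at 10806, 5961 and 9513, and CAB4, CAB6A and LOC543978 had its order. PSBO was tied at 3944 on the pellet and Ex1, and CAB5 read 14.9 on every array. The 3 genes listed as seed markers summed to 5862 on the pellet, 3214 on Ex2 and 4809 on Ex1, also in that order of arrays. LEA14 made up most of this sum, and LEA14 and AG1 each had its order. MAN2 did not, since it was under the filter on every array and highest on Ex2. Each step of that order was common over all probe sets past the filter. Ex2 was below Ex1 in 3493 of 5568, and the pellet was above Ex2 in 2906 of 5538 and above Ex1 in 2581 of 5297. The share with the full order at any fold was not counted, so nothing is read from the shared order. The 3 epidermal markers summed to 6672 on the pellet, 7698 on Ex2 and 2365 on Ex1, another order. All were lowest on Ex1. Of these, ltpg1 and TSW12 were highest on Ex2, and LE16 on the pellet, at 1014 against 688 on Ex2. No marker was at 0. On every array 4 of the 6 green markers, 2 of the 3 genes listed for seed and all 3 epidermal markers passed the filter. The 1 gene listed as a vascular marker, TPRP-F1, stayed under it, at 144 or less. How far the listed genes are particular to their tissue in fruit was not tested. In bulk RNA from different extraction procedures, uneven recovery of transcripts, fewer cells of a type and less RNA per cell cannot be told apart. The part of these markers, of the spikes and of ribosomal RNA in the results was not tested.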

How the data were processed

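Probe set values of 3 arrays were used, 1 for each preparation, with groups taken from the sample titles. The deposited values are probe set intensity on a linear scale, judged by their range. Per the submitters' processing notes, GCOS 5.0 and RMA were used, but neither order nor parameters are given. The table had 10209 probe sets, of which 171 controls were left out of comparisons. Names came from the platform annotation (909 probe sets, 1 name each) and were updated by Entrez gene ID through RefSeq SLM_r2.1, where 885 matched. A gene with several probe sets was taken at the one with the highest mean.

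Differences are of log2(intensity + 1), with no test, since groups have 1 array each, and the code was tested on simulated data with known changes. A feature was compared where the brighter of its values was at or above the non-control median. Genes were named as members of the lists for metal handling, copper enzymes and antioxidants, or as the 5 nearest profiles. TIM10, rpl38 and matriochka were picked after their values were seen, as were the brightness ranges. The genes and lists were chosen with earlier results of these data known. The 1 list of cell wall enzymes kept for contrast was higher in Ex2 than in Ex1 (median 2.50 over 18 genes, 15 past 2-fold). Planned classes of protein length and hydrophobic stretches were not run, because protein sequences were not used here. Alternatives were other scalings, filters, pseudocounts, thresholds and probe set rules. Software was pandas 2.3.3, NumPy 2.4.6 and matplotlib 3.10.9 under Python 3.11.15.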

Additional observations from a re-analysis of the deposited data

How the results depend on the processing

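No paired analysis was possible because each preparation has 1 array. Depth has no meaning for arrays, and their number limits the precision. Of 45 differences of MT2, MTA and CCH recomputed with another pseudocount or scaling, 30 moved by less than the median gap between probe sets of 1 gene, 14 moved by more and 1 turned. All that moved or turned did so under scaling on ribosomal proteins or on spikes. Filters, gene means and leaving out cross-hybridising designs cannot change a gene with 1 plain probe set and say nothing of stability. MT2 did not pass the upper-quartile filter and has no value under it. Scaling on RPL3 and RPL8 gave -0.89 (MT2), -0.79 (MTA) and -0.62 (CCH) for Ex2 minus Ex1, with 1.48, 1.603 and 1.58 between the pellet and Ex2. Scaling on the spikes gave -2.63, -2.53 and -2.36 (Ex2 minus Ex1), 2.46, 2.59 and 2.57 (pellet minus Ex2), and -0.16, 0.057 and 0.21 (pellet minus Ex1). These scalings add 1 constant to all features, which is the cause by construction.

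Counts of probe sets at least 2-fold apart, higher then lower, were 964 and 560 between Ex2 and Ex1, 943 and 1095 between the pellet and Ex2, and 200 and 253 between the pellet and Ex1. With the upper-quartile filter, which tests fewer probe sets, they were 606 and 297, 592 and 635, and 96 and 97. With scaling on the spikes they were 438 and 3993, 1994 and 567, and 36 and 1121. With scaling on RPL3 and RPL8 they were 1252 and 28, 381 and 1548, and 265 and 195. At 3-fold the counts were 759 and 21, 255 and 538, and 43 and 58, and at 1.5-fold 1146 and 1725, 1712 and 1530, and 647 and 669.

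Medians of lists that turned were those of copper enzymes (0.29 for Ex2 minus Ex1, -0.16 between the pellet and Ex2) and antioxidants (0.16 for Ex2 minus Ex1) with ribosomal scaling. With scaling on the spikes the pellet minus Ex1 medians turned from 0.27 to -0.37 (metal handling) and from 0.020 to -0.63 (copper enzymes). The antioxidant median turned from 0.072 to -0.57 and the cell wall median from 0.56 to -0.086. Quantile normalization took the pellet minus Ex1 median of copper enzymes, 0.020 over 3 genes, to -0.044, and the cause was not tested. Leaving RAN1 out of the metal handling list, an alternative added after the values were seen, moved its pellet minus Ex1 median to 0.48. The alternatives for protein length and hydrophobic stretches were not run.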
